A study of Mus musculus with 13 samples.

Results

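The AP-1, EGR and MYC family factors were followed in LPS-activated macrophages that lacked ATP citrate lyase (Acly), the enzyme that makes cytosolic acetyl-CoA. The set holds 10 genes, Fos, Fosl2, Jun, Junb, Jund, Atf3, Egr1, Egr2, Myc and Mycl, out of 24562 genes in the count table. A member was the RefSeq transcript of the gene with the highest summed count. RNA-seq was done on bone marrow-derived macrophages (BMDMs) of female C57Bl/6J mice, grown in L929-conditioned medium and all stimulated with LPS at 100 ng/mL. Control cells carried floxed Acly alleles (Acly fl/fl) without Cre, and AclyM-KO cells carried the same alleles with Lyz2-Cre, which removes exon 9 in myeloid cells. The 13 libraries were 3 control and 3 AclyM-KO after 3 h LPS, and 4 control and 3 AclyM-KO after 24 h LPS. The age of the mice is not given in the sources used here, and unstimulated cells were not analysed here.

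Lyz2-Cre acts only in cells that express Lyz2, so deletion can vary between cells of one culture. Totals lay between 21274102 and 59577343 counts per library, except for replicate 1 of control at 24 h, which had 34467. That library was left out of the main comparisons, and results at 24 h are given without it, with the values that include it beside them for the members and as counts for the lists. Across all genes tested its Pearson correlation with the libraries of its own labelled time, 24 h, was 0.622 to 0.625, and that with 3 h libraries was 0.678 to 0.682. Acly fell in AclyM-KO from 106 ± 1.20 to 41.8 ± 4.24 CPM (counts scaled to a library size of 1000000) at 3 h and from 110 ± 2.78 to 29.9 ± 0.758 CPM at 24 h (SD, n = 3). The macrophage markers Adgre1, Csf1r, Cd68, Itgam, Mertk and Fcgr1 summed to 3814 to 4065 CPM at 3 h and to 3482 to 3709 CPM at 24 h, with both genotypes overlapping. Lyz2, the gene whose locus drives Cre, was at 5237 ± 24.5 CPM in control and 2666 ± 350 in AclyM-KO at 3 h, and at 2436 ± 81.2 and 920 ± 53.1 at 24 h. Neutrophil markers summed to 11 to 13.6 CPM at 3 h and 3.11 to 4.24 CPM at 24 h with Ly6g at 0, and markers of fibroblasts, T, B and NK cells summed to at most 1.28 CPM each.

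AP-1 is a dimer of basic leucine zipper proteins: a FOS protein pairs with a JUN protein, and ATF3 can pair with JUN proteins. In macrophages, Toll-like receptor signals reach these genes through MAP kinases within minutes. Fos, Egr1 and their relatives belong to the genes called immediate early genes. EGR1 and EGR2 are zinc finger factors of the same early wave, while MYC and MYCL bind DNA as dimers with MAX and are known for their part in growth and metabolism.

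The promoter bases of 4 members are shown because they carry the elements for which the early genes are known, or, for Mycl, because its RNA passed both thresholds between genotypes. Each line is the 120 bases before the RefSeq transcription start, in the direction of transcription, with matches in capitals. RefSeq promoters on build GRCm38.p6 were at hand for 8 of the 10 members, without Egr1 and Myc.
Egr2 chr10:67537749-67537868 (+): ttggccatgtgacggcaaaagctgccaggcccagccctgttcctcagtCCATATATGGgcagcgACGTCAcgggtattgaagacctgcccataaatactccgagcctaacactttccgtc
Fos chr12:85473770-85473889 (+): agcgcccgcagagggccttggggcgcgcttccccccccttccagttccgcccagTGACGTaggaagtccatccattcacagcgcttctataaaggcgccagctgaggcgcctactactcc
Atf3 chr1:191183334-191183453 (-): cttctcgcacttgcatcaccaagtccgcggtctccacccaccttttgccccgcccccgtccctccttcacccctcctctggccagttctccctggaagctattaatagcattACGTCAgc
Mycl chr4:122995811-122995930 (+): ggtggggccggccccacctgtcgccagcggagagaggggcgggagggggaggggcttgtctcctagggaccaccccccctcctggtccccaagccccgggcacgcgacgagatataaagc

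On both strands of the 250 bases before each start, the letters TGANTCA (AP-1), TGACGTCA (CRE, the cyclic AMP response element), CACGTG (E-box) and GCGNGGGCG (EGR) were searched, together with the CArG box bound by SRF and the NF-kB site. The core TGACGT of the CRE, which lies within the full CRE, was added after the promoters were seen. The core was found in Fos, Atf3 and Egr2, starting 66, 8 and 56 bases before the start, and in 6.47% of all 32851 promoters. The CArG box was found in Egr2, 72 bases before the start, and in 1.47% of all promoters. Fosl2 held an EGR match 79 bases before its start, against 4.7% of promoters, although its RefSeq start lay 671 bases from the GENCODE start of the counted transcript. NF-kB sites stood in Fos and, as 2 overlapping matches, in Fosl2, outside the printed stretch, and in 7.25% of all promoters. TGANTCA, TGACGTCA and CACGTG had no match in the 8 members, against 6.75%, 1.55% and 6.02% of promoters. Only these patterns within 250 bases were searched, so variants and sites farther upstream were not covered. The Jun window, for example, held TGACATCA, a near match that these letters miss. For Jund, the RefSeq start lay 1210 bases from the counted one, so its window was not that of the counted transcript.

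Levels between genes were compared per kb of transcript. Atf3 was the most abundant member in all 4 groups, at 161 ± 8.03 CPM per kb in control and 194 ± 4.95 in AclyM-KO after 3 h, and 106 ± 6.21 and 146 ± 3.49 after 24 h (SD, n = 3). Junb, Jund and Jun followed in this order in every group, with no overlap between neighbours in the order. The other 6 members lay at or below 4.21 CPM per kb in every library. In control cells at 3 h Mycl was last of the 10, at 1.23 ± 0.13 CPM per kb, and overlapped Myc. In AclyM-KO it ranked 8, at 2.92 ± 0.34, and overlapped Egr2 and Fosl2, while Myc was now last. At 24 h Mycl ranked 7 in control and 5 in AclyM-KO, and Egr2 was last in both.

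**Figure D1:**
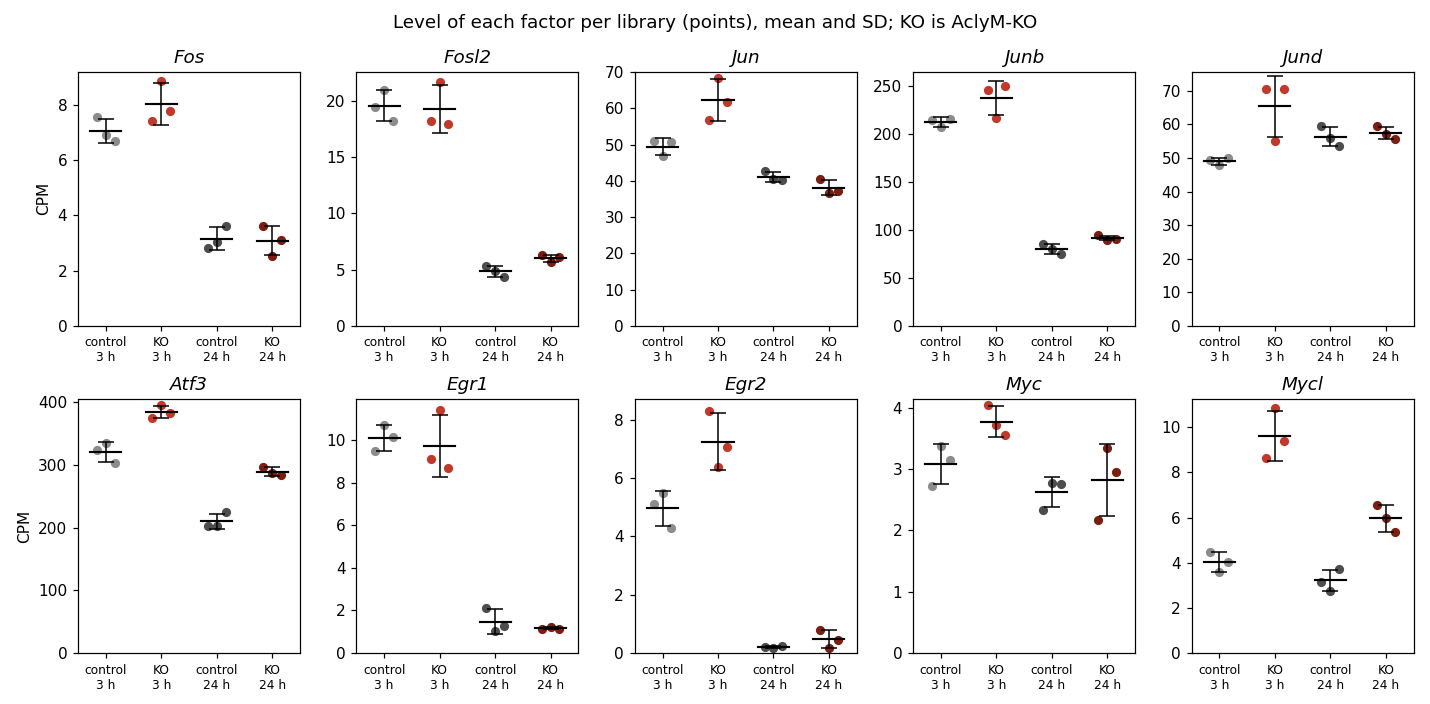
CPM of each of the 10 members (y axis, a scale of its own from 0 in each panel) in the 12 libraries by group (x axis), with the mean as a line and the SD as a bar. AclyM-KO libraries lie above control libraries for Mycl at both times, and the points of Fos, Fosl2, Junb, Egr1 and Egr2 lie lower at 24 h than at 3 h in both genotypes.

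Comparing AclyM-KO with control asked whether loss of Acly changes the RNA of these factors during activation. At 3 h, 1 of 10 members, Mycl, passed both thresholds, an adjusted p under 0.05 and a log2 fold change beyond 0.75 (1.41% of the 11942 genes tested were called higher). By the adjusted p alone 6 members were higher, Mycl, Jun, Junb, Jund, Atf3 and Egr2, and 0 lower (8.52% of all genes were higher by this rule). Myc joined these 6 as members whose AclyM-KO libraries all lay above control, so 7 of 10 did not overlap (15.4% of all genes were higher without overlap). The median log2 fold change of the 10 was 0.28, against -0.01 over all genes tested. At 24 h Mycl was again the 1 member past both thresholds (0.896% of all genes higher). By the adjusted p alone 4 members were higher, Mycl, Atf3, Junb and Fosl2, and 0 lower (8.31% of all genes higher). At an unadjusted p under 0.05, edgeR and DESeq2 likewise found 0 members lower at either time (with edgeR, 13.4% of all genes were lower at 3 h and 11.2% at 24 h). With replicate 1 of control at 24 h included, the members higher by the adjusted p alone were 5 at 3 h and 2 at 24 h. Without that library, Mycl, Atf3, Junb and Fosl2 were the 4 members that did not overlap at 24 h, against 18.2% of all genes higher without overlap. The median of the 10 at 24 h was then 0.14, against 0.01 over all genes. Adjusted p-values are from edgeR's quasi-likelihood test over all 19621 transcripts tested. The labels do not say whether replicates were separate mice or cultures, so these p-values measure the spread between samples, which may be technical. In bulk RNA, a change in the share of cells that express a gene cannot be told apart from a change in RNA per cell.

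**Figure D2:**
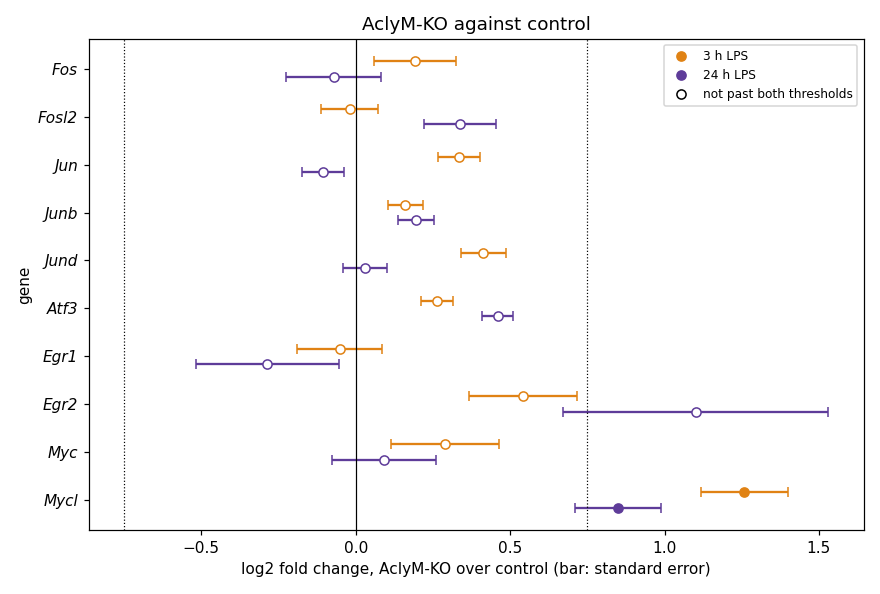
Log2 fold change of each member (y axis) in AclyM-KO over control (x axis, bars are standard errors) after 3 h and 24 h LPS, with dotted lines at 0.75 on either side of 0. Filled points pass both thresholds, which holds for Mycl alone, at 1.26 and 0.85, while Egr2 at 24 h lies at 1.10 with a standard error of 0.43.

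Mycl, on chromosome 4 from 122995652 to 123002485 of the plus strand (GRCm38), encodes the L-MYC protein, a MYC relative that is known in dendritic cells and lung tumours. Control libraries at 3 h held 4.47, 3.60 and 4.04 CPM of Mycl, and AclyM-KO libraries 8.65, 10.8 and 9.37. At 24 h the control libraries held 3.16, 2.77 and 3.72 CPM and the AclyM-KO libraries 6.57, 5.99 and 5.37. Every AclyM-KO library lay above every control library of either time. The fold was 2.39 at 3 h (log2 1.26, SE 0.14, adjusted p = 1.52e-07) and 1.80 at 24 h (log2 0.85, SE 0.14, adjusted p = 5.74e-05). With replicate 1 of control at 24 h included, which had 0 counts of Mycl, the log2 fold change at 24 h was again 0.85 (adjusted p = 4.49e-05). Leaving out each library in turn gave 1.17 to 1.34 at 3 h and 0.77 to 1.01 at 24 h, and both calls held in 12 of 12 such fits. Dendritic cell markers summed to 1.54 to 1.78 CPM in control and 1.89 to 2.69 in AclyM-KO at 3 h, and to 0.382 to 0.574 and 0.563 to 0.788 at 24 h, and their part in the Mycl result was not tested.

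Myc itself, the general family member, was low. It stood at 2.73, 3.37 and 3.14 CPM in control and 4.05, 3.72 and 3.56 in AclyM-KO at 3 h, from 55 to 85 counts a library. These groups did not overlap, but the log2 fold change of 0.29 (SE 0.18) had an adjusted p of 0.296. At 24 h the values were 2.34, 2.77 and 2.75 CPM in control and 2.18, 3.34 and 2.95 in AclyM-KO, overlapping, with a log2 fold change of 0.09 (SE 0.17, adjusted p = 0.776). The ratio of Myc to Mycl per kb was 1.09 in control and 0.559 in AclyM-KO at 3 h, and 1.16 and 0.675 at 24 h, with no overlap between genotypes at either time.

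Atf3 is a stress-induced factor that restrains Toll-like receptor target genes, on the minus strand of chromosome 1 from 191170296 to 191218039. It was at 323, 334 and 303 CPM in control and 375, 395 and 383 in AclyM-KO at 3 h. At 24 h control libraries held 203, 203 and 224 CPM and AclyM-KO libraries 297, 287 and 283. AclyM-KO lay above control without overlap at both times. The folds were 1.20 (log2 0.26, SE 0.05, adjusted p = 0.000508) and 1.38 (log2 0.46, SE 0.05, adjusted p = 1.41e-07), both under the fold threshold. Including replicate 1 of control at 24 h, which read 314 CPM from 14 counts, gave 0.45 at 24 h (adjusted p = 5.93e-06). The change between times in the genotype difference, 0.20 (SE 0.07), did not pass (adjusted p = 0.082).

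Among the JUN genes, which can pair with every FOS protein, Jun and Jund differed by genotype after 3 h. Each is a gene of 1 exon, Jun on chromosome 4 from 95049034 to 95052222 (minus strand) and Jund on chromosome 8 from 70698949 to 70700616 (plus strand). Jun was at 51.0, 46.7 and 50.7 CPM in control and 56.7, 68.5 and 61.7 in AclyM-KO at 3 h. At 24 h it was at 42.7, 40.4 and 40.1 CPM in control and at 40.5, 36.6 and 37.2 in AclyM-KO. The 3 h groups were apart, with a log2 fold change of 0.33 (SE 0.07, adjusted p = 0.000747), and the 24 h groups overlapped at -0.11 (SE 0.07, adjusted p = 0.33).

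Jund, the JUN gene usually present at steady levels in resting cells, was at 49.3, 47.8 and 49.9 CPM in control and 70.5, 55.0 and 70.6 in AclyM-KO at 3 h. At 24 h it was at 59.4, 55.9 and 53.7 CPM in control and 59.4, 57.3 and 55.6 in AclyM-KO. Replicate 2 of AclyM-KO at 3 h stood below the other two for Jund, Junb and Egr2 and above them for Jun, Atf3, Fos, Fosl2, Egr1 and Mycl. The log2 fold change of Jund was 0.41 at 3 h (SE 0.07, adjusted p = 0.000252) and 0.03 at 24 h (SE 0.07, adjusted p = 0.826), where the groups overlapped.

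The test of the difference itself called Jun and Jund: 2 of 10 members had a genotype difference that was lower at 24 h than at 3 h (4.71% of all genes in this direction, 9.59% in either). The change was -0.44 for Jun (SE 0.09, adjusted p = 0.00254) and -0.38 for Jund (SE 0.10, adjusted p = 0.0168). With replicate 1 of control at 24 h included the adjusted p was 0.00485 for Jun and 0.0399 for Jund. The Jun call held without any 1 library. The Jund call was lost without replicate 3 of AclyM-KO at 24 h (adjusted p = 0.0553), replicate 3 of AclyM-KO at 3 h (0.0657) or replicate 2 of control at 24 h (0.0535).

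Junb, also of 1 exon and known to be strongly induced by LPS in macrophages, was at 215, 207 and 216 CPM in control and 246, 217 and 250 in AclyM-KO at 3 h. At 24 h it was at 85.3, 80.2 and 74.5 CPM in control and 94.2, 89.8 and 90.3 in AclyM-KO. Both times were apart by little: the highest control library at 3 h lay at 216 CPM and the lowest AclyM-KO library at 217. The log2 fold change was 0.16 at 3 h (SE 0.06, adjusted p = 0.0494) and 0.20 at 24 h (SE 0.06, adjusted p = 0.0199). Including replicate 1 of control at 24 h, with 8 counts of Junb, ended both calls (adjusted p = 0.11 and 0.0671), and DESeq2 ended that at 3 h (0.0617). Without 1 library at a time, the adjusted p stayed under 0.05 in 3 of 12 fits at 3 h, where it ran from 0.00219 to 0.236, and in 8 of 12 at 24 h, from 0.00601 to 0.157. The 3 h call stayed only without replicate 2 of AclyM-KO at 3 h or replicate 2 or 4 of control at 24 h. The 24 h call was lost without replicate 1 or 3 of AclyM-KO or replicate 3 or 4 of control at 24 h.

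Per kb, the 3 JUN genes summed to 158 to 165 CPM per kb in control and 174 to 200 in AclyM-KO at 3 h, and to 86.0 to 96.2 and 94.9 to 100 at 24 h. Junb made up 72.4% ± 0.155 of this sum in control and 69.1% ± 0.298 in AclyM-KO at 3 h, and 48.6% ± 0.621 and 52.2% ± 0.377 at 24 h (SD, n = 3). The share of Junb was thus lower in AclyM-KO at 3 h and higher at 24 h, with no overlap at either time. Jund made up 18.1% in control and 20.5% in AclyM-KO at 3 h, and 37.2% and 35.5% at 24 h, also without overlap. Replicate 1 of control at 24 h held 8 counts of Junb, 1 of Jun and 0 of Jund, Myc and Mycl, too few for a share or a ratio. Jun made up 9.55% and 10.4% at 3 h, overlapping, and 14.2% and 12.3% at 24 h, apart. For the 3 shares and the ratio of Myc to Mycl at 2 times, 8 comparisons in all, the two-sided exact permutation p was 0.1 in 7, the smallest that 3 against 3 can give, and 0.8 for the share of Jun at 3 h (Benjamini-Hochberg adjusted 0.114 and 0.8). Parts of Jun, Junb and Jund overlap genes on the opposite strand, Junos, Prdx2 and Gm11175, and so does Atf3 with Gm24748. The libraries were strand-specific but the strand setting of the counting is not given in the sources used here.

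**Figure D3:**
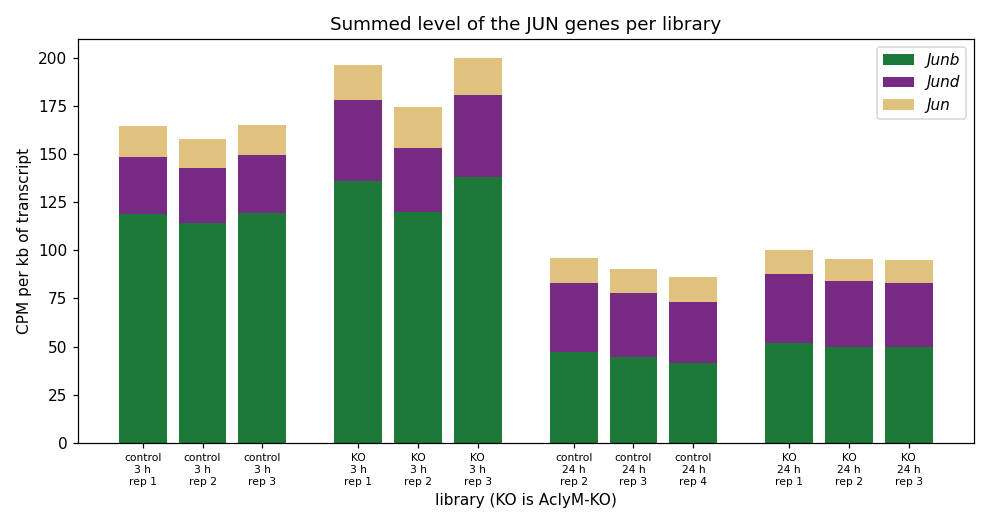
Stacked bars of Junb, Jund and Jun in CPM per kb of transcript (y axis from 0) in each of 12 libraries (x axis). The sum falls from 158 to 200 at 3 h to 86.0 to 100 at 24 h, and most of the drop is in the Junb part, whose share goes from 72.4% to 48.6% in control.

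The FOS genes encode partners that cannot pair among themselves. Fos was at 7.54, 6.92 and 6.68 CPM in control and 7.42, 8.87 and 7.79 in AclyM-KO at 3 h, and at 2.83, 3.03 and 3.62 and 3.60, 2.53 and 3.11 at 24 h. The genotypes overlapped at both times, with log2 fold changes of 0.19 (SE 0.13, adjusted p = 0.377) and -0.07 (SE 0.15, adjusted p = 0.814). Fosl2 was at 19.5, 21.0 and 18.2 CPM in control and 18.2, 21.7 and 17.9 in AclyM-KO at 3 h, also overlapping, at -0.02 (SE 0.09, adjusted p = 0.923). At 24 h Fosl2 was at 5.33, 4.86 and 4.38 CPM in control and 6.27, 5.67 and 6.10 in AclyM-KO, apart, with a log2 fold change of 0.34 (SE 0.12, adjusted p = 0.0484). The adjusted p was 0.0525 with replicate 1 of control included and 0.0636 with DESeq2. Without 1 library at a time it ran from 0.0314 to 0.300, and it stayed under 0.05 only without replicate 1 or 2 of AclyM-KO at 3 h or replicate 2 of control at 24 h.

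The EGR genes lay low at 24 h. Egr1, the prototype serum response gene, was at 9.48, 10.7 and 10.2 CPM in control and 9.11, 11.4 and 8.70 in AclyM-KO at 3 h, overlapping (log2 fold change -0.05, SE 0.14, adjusted p = 0.854). At 24 h it was at 2.13, 1.02 and 1.28 and at 1.13, 1.25 and 1.15 CPM, again overlapping (-0.29, SE 0.23, adjusted p = 0.465). Egr2, which is known in macrophages and in myelinating cells, was at 5.11, 5.47 and 4.29 CPM in control and 8.29, 6.38 and 7.06 in AclyM-KO at 3 h. These groups were apart, at a log2 fold change of 0.54 (SE 0.17, adjusted p = 0.0315), and the adjusted p ran from 0.0146 to 0.158 without 1 library at a time. The call was lost without replicate 1 or 3 of either genotype at 3 h. At 24 h Egr2 came from 5, 4 and 16 counts in control and 21, 4 and 12 in AclyM-KO, or 0.205, 0.17 and 0.244 CPM and 0.788, 0.161 and 0.46 CPM. The groups overlapped, since replicate 2 of AclyM-KO was the lowest of the 6, and the log2 fold change of 1.10 (SE 0.43) did not pass (adjusted p = 0.0869). Of the 12 fits without 1 library 1 passed, that without replicate 2 of AclyM-KO (1.49, adjusted p = 0.0138), while leaving out replicate 1 of AclyM-KO gave 0.51 (adjusted p = 0.603). With DESeq2 it passed (1.13, adjusted p = 0.0443).

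With replicate 1 of control at 24 h included, the 24 h log2 fold changes that had not passed were -0.10 for Jun, 0.04 for Jund, -0.08 for Fos, -0.29 for Egr1, 0.09 for Myc and 1.10 for Egr2, and none passed.

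Comparing 24 h with 3 h within a genotype showed which factors differed in level between these times. In control cells 5 of 10 members fell past both thresholds, Fos, Fosl2, Junb, Egr1 and Egr2 (19.5% of all genes were called lower), and the same 5 fell in AclyM-KO (20% of all genes). By the adjusted p alone 7 members were lower in control, with Jun and Atf3 added (36.0% of all genes), and all 10 were lower in AclyM-KO (36.3%). The 3 h and 24 h libraries were apart, with 24 h lower, for the same 7 members in control (37.3% of all genes) and for 9 members in AclyM-KO (36.7%), where Jund overlapped.

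The EGR genes fell most: Egr2 was 22.2-fold lower in control (log2 -4.47, SE 0.28) and 15-fold lower in AclyM-KO (-3.91, SE 0.25), and Egr1 7.05-fold (-2.82, SE 0.17) and 8.30-fold lower (-3.05, SE 0.18). Fosl2 was 4.11-fold lower in control and 3.21-fold lower in AclyM-KO, Junb 2.66-fold and 2.60-fold, and Fos 2.17-fold and 2.60-fold. Atf3 was less changed, at log2 -0.61 in control and -0.41 in AclyM-KO (SE 0.05 each). Jun was at -0.27 (SE 0.07) in control and -0.71 (SE 0.07) in AclyM-KO, close to the fold threshold, which it passed without replicate 1 of AclyM-KO at 3 h (-0.776) or at 24 h (-0.755). Jund was the 1 member that was higher at 24 h in control (0.20, SE 0.07, adjusted p = 0.0164), a call lost without replicate 2 of control at 24 h (adjusted p = 0.0787) and with DESeq2 (0.0519). In AclyM-KO Jund was lower (-0.18, SE 0.07, adjusted p = 0.0226), from -0.32 to -0.13 without 1 library at a time. That call was lost without replicate 2 or 3 of AclyM-KO at 24 h (adjusted p = 0.0557 and 0.0844) or replicate 1 or 3 of AclyM-KO at 3 h (0.105 and 0.15). Myc and Mycl did not pass in control (-0.22, SE 0.17, and -0.28, SE 0.15) and were lower in AclyM-KO (-0.42, SE 0.17, adjusted p = 0.0272, and -0.69, SE 0.13, adjusted p = 1.76e-05). The Myc call was lost without replicate 1 of AclyM-KO at 24 h (-0.26, adjusted p = 0.188) or at 3 h (-0.37, adjusted p = 0.0781), and Mycl passed in control without replicate 4 of control at 24 h (-0.44, adjusted p = 0.0277). The genotype and duration comparisons share libraries. Including replicate 1 of control at 24 h left the counts in control at 5 lower by both thresholds and, by the adjusted p alone, at 8 in either direction (7 lower, and Jund higher).

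**Figure D4:**
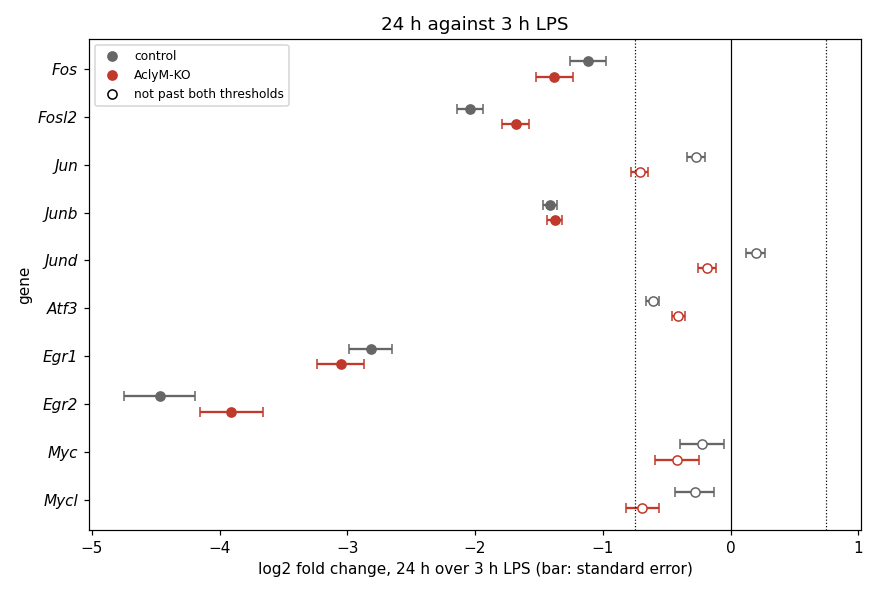
Log2 fold change of each member (y axis) at 24 h over 3 h LPS (x axis, bars are standard errors) in control and AclyM-KO, with dotted lines at 0.75 on either side of 0. The EGR genes lie farthest left, from -2.82 to -4.47, and Jund lies on either side of 0, at 0.20 in control and -0.18 in AclyM-KO.

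Related genes were counted in 6 lists of partners, regulators and targets. The lists held 12, 3, 9, 13, 17 and 16 tested genes. By both thresholds the genotype called 1 gene among all of these, higher in AclyM-KO at both times. Of all genes, 2.01% were called at 3 h and 1.38% at 24 h in either direction, so 1 call is no more than a small share. That gene was Klf4, a zinc finger factor of macrophage polarization, at a log2 fold change of 0.79 (SE 0.14, adjusted p = 0.000243) and 0.77 (SE 0.09, adjusted p = 2.19e-07), 1 of 13 tested among other immediate early genes. Genes that passed the adjusted p alone, by which 15.4% of all genes differed in either direction at 3 h and 13.9% at 24 h, were named after their values were seen. In the immediate early list this rule gave 3 of 13 higher at 3 h and 5 of 13 at 24 h, with 0 lower (also at an unadjusted p under 0.05 with edgeR and DESeq2), and Klf4, Ier5 and Zfp36, which encodes the mRNA decay factor tristetraprolin, were among them at both times. The median log2 fold change of that list was 0.22 at 3 h and 0.29 at 24 h, against -0.01 and 0.01 over all genes.

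Of 12 other AP-1 and bZIP partners tested, 3 were higher at 3 h, the small MAF genes Maff (0.44), Mafg (0.40) and Mafk (0.23), and 2 were lower, Batf (-0.40) and Jdp2 (-0.36). At 24 h Jdp2 (0.54) and Mafk (0.40) were higher, and Maf (-0.38), which encodes a large MAF factor, was lower. Jdp2, which encodes a repressor that pairs with JUN proteins, thus lay on opposite sides of 0 at the 2 times. Its genotype difference changed by 0.91 between times (SE 0.12, adjusted p = 1.55e-05). The genotype difference of Batf (0.60) also changed upwards between times, and those of Maf (-0.43) and Maff (-0.47) downwards. Of all genes, 15.4% differed by genotype at 3 h and 13.9% at 24 h by the adjusted p alone. A genotype difference that changed between times was found in 9.59%.

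Of 9 genes tested in the MYC-MAX network, Mnt was higher at 3 h (0.75, SE 0.23, adjusted p = 0.0465), just under the fold threshold. Its level at 3 h was 5.18 ± 0.0159 CPM in control and 8.80 ± 2.97 in AclyM-KO (SD), so the AclyM-KO libraries were uneven. At 24 h Mxd1 (0.59) and Mlxip (0.21) were higher. MNT and MXD1 compete with MYC proteins for MAX. Of 16 MYC target genes of ribosome production and nucleotide synthesis, 0 were higher at either time by edgeR's adjusted p, and 0 at an unadjusted p under 0.05 with edgeR or DESeq2. Nop58 (-0.39) and Nolc1 (-0.29) were lower at 3 h, and Rrs1 (-0.40), Ldha (-0.22) and Mybbp1a (-0.24) at 24 h. By the adjusted p, 826 of all 11942 genes tested were lower at 3 h and 667 at 24 h, and 1018 and 992 were higher. The median of the 16 was -0.06 at 3 h and -0.14 at 24 h, against -0.01 and 0.01 over all genes. At 24 h, 1 of 16 lay above 0, against 6120 of the 11942.

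Of 17 kinases and SRF partners upstream of the early genes, Mapk14 (0.21), which encodes p38 alpha, and Map3k8 (0.20) were higher at 3 h, and Map2k4 (-0.27) and Elk3 (-0.27) lower. At 24 h Map2k3 (0.22) was higher and Mapk14 (-0.20) lower. Of all genes, 15.4% differed by genotype at 3 h and 13.9% at 24 h by the adjusted p alone. The genotype difference changed between times for Mapk14 (-0.41, SE 0.08, adjusted p = 0.0011) and Mapk11 (-0.94, SE 0.27, adjusted p = 0.0213), both downwards. It changed upwards for Map2k3 (0.28) and Map2k4 (0.29), against 9.59% of all genes in either direction. Of 3 tested genes among Egr3, Egr4, Nab1 and Nab2, other EGR factors and co-repressors of EGR proteins, 0 passed the adjusted p at either time by edgeR or DESeq2. At an unadjusted p under 0.05, edgeR found 1 lower at 3 h, Egr3, and 0 at 24 h, and DESeq2 found 0.

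With replicate 1 of control at 24 h included, Klf4 was again the 1 list gene past both thresholds at each time. By the adjusted p alone Zfp36 was lost at both times (adjusted p = 0.199 and 0.111), Nolc1 at 3 h (0.0549), and Klf6 (0.148) and Mybbp1a (0.0564) at 24 h.

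As a description over 12 libraries, the genes whose log2 CPM followed each member most closely were named by Pearson's r, 3 for each. For Mycl they were 2310022A10Rik (0.956), Kctd17 (0.941) and Atp6v1b2 (0.933), and for Atf3 they were Hcar2 (0.977), Tes (0.975) and Ccl2 (0.974). For Junb they were Ralgds, Rela and Rhbdf2 (0.998 to 0.999), and for Jun Ifi27l2a, Prelid1 and Pdxk (0.966 to 0.968). Jund and Myc had looser neighbours, Sh2b3, Arhgap30 and Arhgap45 (0.878 to 0.907) and Prss16, Adam19 and Neo1 (0.884 to 0.926). Fos ran with Lpl, Pcna and Fam241a (all 0.991), and Fosl2 with Serpinb1a, Zyx and Tspan13 (0.995 to 0.997). Egr1 ran with Odc1, Plppr3 and Fancc (0.993 to 0.995) and Egr2 with Dnah17, Pign and Ube2c (0.99 to 0.996). The points share the 2 times of stimulation, which set most of the spread for the members that fell by 24 h.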

How the data were processed

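Strand-specific mRNA libraries were sequenced by the authors, aligned to mm10 with STAR 2.5.2b (CASAVA 1.8.2 is also named in the submitters' processing notes), and deposited as raw tag counts per RefSeq transcript, summed with HOMER. All 13 count columns were used, and 0 were set aside. Transcripts (35745) were named through RefSeq (35440 matched) and GENCODE (35628 in all). Transcripts of 1 gene carried near-equal counts (Jund 17854 for both), so shared reads were counted for each. Replicate 1 of control at 24 h (34467 counts) was left out of the fit, where 1 count was 22.4 CPM against 0.0153 to 0.0512 elsewhere. edgeR 4.0.16 (limma 3.58.1, R 4.3.3; TMM, filterByExpr, robust quasi-likelihood test, 4 groups) tested 19621 transcripts with Benjamini-Hochberg adjustment, and CPM are counts scaled to 1000000 by TMM-adjusted totals. Gene coordinates are from GENCODE on GRCm38. The code was tested on simulated data. Named were all 10 members, list genes past the thresholds and the 3 genes nearest to each member in log2 CPM. The members and lists were chosen with earlier results of these data known. Alternatives were DESeq2 1.42.0, RLE scaling, no filter, 1 transcript per gene, a fold threshold of 1, a replicate block, all 13 libraries and leaving out each library. The counts without a fold threshold were added after seeing the data. Replicates differed beyond counting noise (chi-square per degree of freedom from 2.66 to 11.9). The values of 1 list gene are not reported here.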

Additional observations from a re-analysis of the deposited data

Results flagged for a closer look

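Among the 4 control libraries at 24 h, replicate 1 stood far from the other 3 for 5 members. It was the highest for Fos (22.4 CPM, from 1 count) and Junb (179 CPM, from 8 counts), and the lowest for Jun (22.4 CPM, from 1 count), Jund (0 CPM) and Myc (0 CPM). The gap exceeded Dixon's 95% critical value for 4 samples, which chance exceeds in about 5% of groups. This library held 34467 counts, so a single read was worth 22.4 CPM.

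The genotype difference changed between 3 h and 24 h for Jun (-0.44 on the log2 scale) and Jund (-0.38), by the test of the interaction.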

How the results depend on the processing

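Past both thresholds, the count at 3 h was 1 under every alternative run. At 24 h it was 2 with DESeq2, 0 with a fold threshold of 1, and 1 to 2 without 1 library at a time (2, with Egr2 added, without replicate 2 of AclyM-KO). By the adjusted p alone at 24 h it went from 4 to 2 with all 13 libraries, to 2 with the replicate block (Fosl2 0.25, adjusted p = 0.272, and Junb 0.12, adjusted p = 0.247, were lost), and to 2 to 4 without 1 library. The count with an interaction was 1 to 3 without 1 library and 3 with the replicate block, which added Atf3 (0.24, adjusted p = 0.0406). Only replicate 4 of control at 24 h carried its number, so the block took that library out of the comparison. The block is thus not a check of replicate matching alone. Without that library and with no block, Fosl2 at 24 h was 0.24 (adjusted p = 0.300) and Junb 0.14 (0.157). The interaction of Atf3 was then 0.25 (adjusted p = 0.0287). The 5 members that fell with duration were 5 under every alternative in control, and 5 to 7 without 1 library in AclyM-KO (Jun and Mycl added).

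Directions turned only for values that did not pass. With the replicate block, Fos at 24 h became 0.0481, Jund at 24 h -0.0371 and the interaction of Junb -0.0354. Without replicate 4 of control at 24 h and with no block, these values were 0.0772, -0.0073 and -0.0174. Without 1 library at a time, Fosl2 at 3 h ran from -0.112 to 0.0381, Egr1 at 3 h from -0.181 to 0.0242, Fos at 24 h from -0.199 to 0.0772, Jund at 24 h from -0.0073 to 0.0694 and Myc at 24 h from -0.0432 to 0.251. The interaction ran from -0.0414 to 0.083 for Junb, from -0.0337 to 0.951 for Egr2 and from -0.382 to 0.0182 for Egr1. The cause of these turns was not tested.

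Residuals of same-numbered libraries correlated at -0.031 to 0.059 over 15 pairs, and those of differently numbered libraries at -0.064 to 0.075 over 39. Between 3 h and 24 h, same-numbered pairs lay at 0.059, 0.039 and 0.041 in AclyM-KO and at -0.007 and 0.016 in control. The labels do not say that the numbers match across groups, so these values cannot decide whether libraries shared a mouse or culture. At 24 h, Egr2 rested on 4 to 21 counts a library, which limits its precision.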
